A study of Homo sapiens with 6 samples.

Results

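A set of 9 genes of the G1 phase and of the p53 response was followed by name among 37871 genes in RNA-seq counts of T24, a long-used human urinary bladder cancer line. The genes are MDM2, CDKN1A, CDKN1B, BTG1, BTG2, GADD45A, GADD45B, CCND1 and CCNE2, and all 9 were found and passed the filter on low counts, as did 19170 genes in all. The set was chosen by gene name, with earlier results of these data known. It holds brakes (CDKN1A, CDKN1B, the BTG and GADD45 genes), a p53 target that acts against p53 (MDM2) and drivers of G1 and S phase entry (CCND1 and CCNE2), so it is mixed in function. In all, 3 libraries came from cells given LPS plus nigericin, and 3 from cells given vehicle. LPS, from the outer membrane of gram-negative bacteria, is recognised by TLR4, and nigericin carries potassium out of cells, a trigger of the NLRP3 inflammasome. Both agents were always given together, and their dose and duration are unknown here, so no value below can be assigned to either agent. All 6 libraries are of 1 cell line.

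The p53 protein is a transcription factor that accumulates after DNA damage and other stress. It induces CDKN1A, which encodes p21, an inhibitor of the cyclin-dependent kinases that drive cells from G1 into S phase, and MDM2, which encodes the ubiquitin ligase that degrades p53 and so closes a negative feedback loop. BTG2 and GADD45A are also p53 targets, yet CDKN1A, BTG2 and the GADD45 genes are known to respond to stress and inflammatory signals without p53 as well.

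The libraries held 66180407 to 89152224 counts. CPM below means counts per 1e6 of a library's TMM-corrected size. Adjusted p-values come from edgeR's quasi-likelihood test with Benjamini-Hochberg adjustment over all 19170 genes tested. CPM are shares of a library, so fewer cells and less RNA per cell cannot be told apart. The labels do not state separate cultures, so the p-values describe variation among these libraries, which may be technical. Epithelial keratin genes KRT7, KRT8, KRT18 and KRT19 were abundant and GATA3 was present, while CDH1, TP63 and UPK3A were under 1 CPM and UPK1B was at 0 in every library. The 11 urothelial and epithelial markers summed to 3521 to 4523 CPM after LPS plus nigericin and to 6557 to 9551 CPM in vehicle, the 7 measured leukocyte markers to 5.20 to 8.09 and 8.02 to 16.4 CPM, and the 5 endothelial markers to 0.560 to 1.03 and 0.779 to 0.918 CPM. Of the leukocyte markers, CD14 and CD68 were over 1 CPM. CD68 was at 2.48 ± 0.505 CPM after LPS plus nigericin and 7.26 ± 3.96 CPM in vehicle, LYZ was higher at 0.673 ± 0.113 and 0.0671 ± 0.0812 CPM (SD, n = 3 each), and PTPRC was at or near 0. Transcripts of the mitochondrial genome took 12.04% to 12.39% of counts after LPS plus nigericin and 6.49% to 7.33% in vehicle. The part of these differences in the results below was not tested.

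The start regions of 4 of the genes are shown because they are those of a pair of related genes that changed by very different amounts (BTG2 and BTG1), of the second strongest riser (GADD45B) and of the best known p53 target (CDKN1A). Each is the RefSeq window on GRCh38.p14, from 250 bases before to 50 bases after the annotated start, written 5′ to 3′ on the gene's own strand. Capitals mark TATA, CCAAT and GC boxes and matches to the NF-kB consensus, searched on both strands. The windows are chr19:2475877-2476176 on the plus strand for GADD45B, chr1:203305269-203305568 on the plus strand for BTG2, chr12:92145797-92146096 on the minus strand for BTG1 and chr6:36678464-36678763 on the plus strand for CDKN1A.
GADD45B: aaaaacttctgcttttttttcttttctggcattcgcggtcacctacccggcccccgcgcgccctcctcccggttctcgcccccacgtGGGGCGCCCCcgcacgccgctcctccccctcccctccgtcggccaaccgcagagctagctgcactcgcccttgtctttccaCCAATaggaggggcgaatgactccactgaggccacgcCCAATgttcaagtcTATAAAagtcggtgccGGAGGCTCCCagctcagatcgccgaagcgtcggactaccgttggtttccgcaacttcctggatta
BTG2: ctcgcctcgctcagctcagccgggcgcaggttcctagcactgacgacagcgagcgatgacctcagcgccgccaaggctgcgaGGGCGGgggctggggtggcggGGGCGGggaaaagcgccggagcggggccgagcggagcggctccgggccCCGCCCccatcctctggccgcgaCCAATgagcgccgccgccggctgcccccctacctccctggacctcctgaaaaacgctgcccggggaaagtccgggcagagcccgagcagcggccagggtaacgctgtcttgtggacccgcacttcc
BTG1: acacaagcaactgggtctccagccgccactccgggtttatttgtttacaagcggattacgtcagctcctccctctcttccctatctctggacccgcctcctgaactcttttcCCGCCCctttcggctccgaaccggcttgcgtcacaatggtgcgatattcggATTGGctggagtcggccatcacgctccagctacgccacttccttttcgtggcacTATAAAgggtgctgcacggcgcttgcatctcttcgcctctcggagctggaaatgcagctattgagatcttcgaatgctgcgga
CDKN1A: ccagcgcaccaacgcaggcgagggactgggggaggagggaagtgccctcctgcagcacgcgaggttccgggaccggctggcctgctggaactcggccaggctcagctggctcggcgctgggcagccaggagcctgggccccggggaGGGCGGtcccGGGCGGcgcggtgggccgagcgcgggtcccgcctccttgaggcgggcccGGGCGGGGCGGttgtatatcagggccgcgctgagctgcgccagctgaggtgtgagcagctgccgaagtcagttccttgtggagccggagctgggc
The GADD45B window holds a TATA box that begins 31 bases before the start, 2 CCAAT boxes and 2 matches to the NF-kB consensus, which begin 163 and 15 bases before it. The BTG1 window also has a TATA box, 33 bases before the start, with 1 GC box and 1 CCAAT box. BTG2 has no TATA box, and holds 3 GC boxes and 1 CCAAT box. CDKN1A has 4 GC boxes, of which the 2 nearest to the start share 1 base. Of 27305 windows of this length, 12% hold a TATA box (searched as TATAAA), 35.7% hold a CCAAT box, 44.6% hold a GC box (searched as GGGCGG) and 10.8% an NF-kB match. Neither a half-site of the p53 consensus (in 6.54% of all windows) nor the AP-1 motif TGANTCA (in 7.76%) was found in the windows of the 6 genes that had one (these 4, MDM2 and CDKN1B), which says only that these letters are not in these 300 bases.

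Of the 9 genes, 7 passed the threshold after LPS plus nigericin. BTG2, GADD45B, GADD45A, BTG1, MDM2 and CDKN1A were higher, CDKN1B was lower, and CCND1 and CCNE2 did not pass. Among all tested genes 55.3% passed, 28.9% higher and 26.4% lower, and the 77.8% called of the 9 genes is to be read against that share. BTG2 changed by more than 97.4% of all tested genes, GADD45B by more than 94.8% and GADD45A by more than 88.6%. The changes of BTG1, MDM2 and CDKN1A exceeded those of 49.7%, 47.3% and 44.9% of tested genes, near the middle of the table. The 2 groups of 3 libraries did not overlap for 8 of the 9 genes, against 67% of all tested genes.

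**Figure D1:**
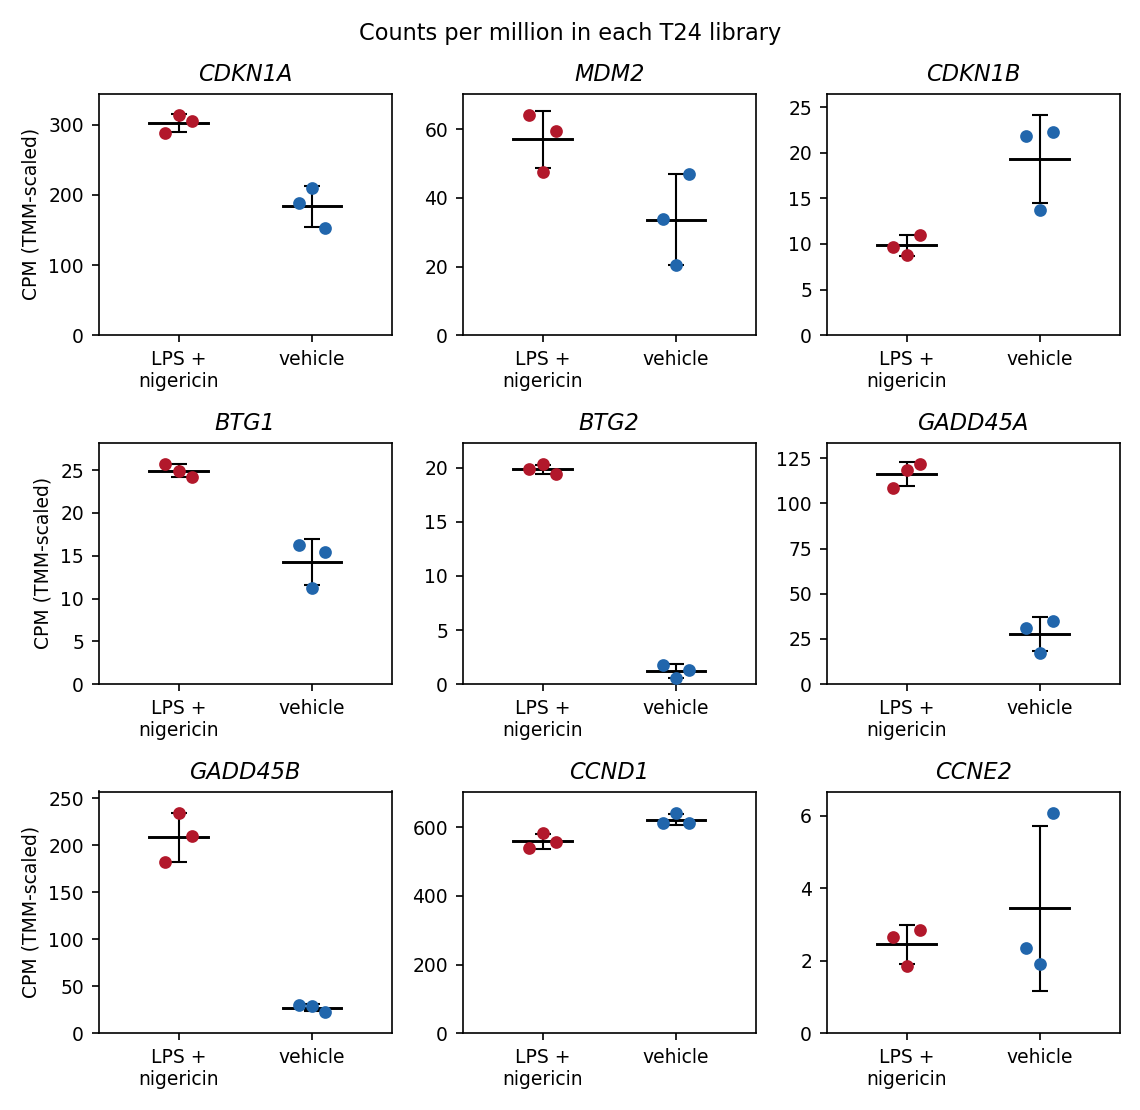
CPM (TMM-scaled, y axis from 0) of each gene in the 3 LPS plus nigericin libraries (red) and the 3 vehicle libraries (blue), with the mean as a horizontal line and the SD as error bar. BTG2, GADD45B and GADD45A are separated widest, while MDM2 and CCND1 nearly touch and CCNE2 overlaps.

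Transcript composition differed between the groups, and this bears on every value that follows. Each library's deviation from the mean log2 CPM correlated with GC content across 13976 tested protein-coding genes at -0.540, -0.431 and -0.490 in the LPS plus nigericin libraries and at 0.503, 0.609 and 0.193 in the vehicle libraries (Spearman, replicates 1 to 3, across genes, which are not independent). Median log2 fold changes fell with GC content, with 0.87 in the GC-poorest decile of genes and -0.82 in the GC-richest. A second fit with offsets for GC content and exon length in each library, over the same 13976 genes, is therefore given beside the results. Treatment effects that run along GC content or length are taken out with it. In that fit 54.8% of genes passed, 24.6% higher and 30.1% lower, and of the 9 genes 4 were higher and 3 lower. All list counts with the offsets below are to be read against these shares. Whether the trend is technical was not tested.

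**Figure D2:**
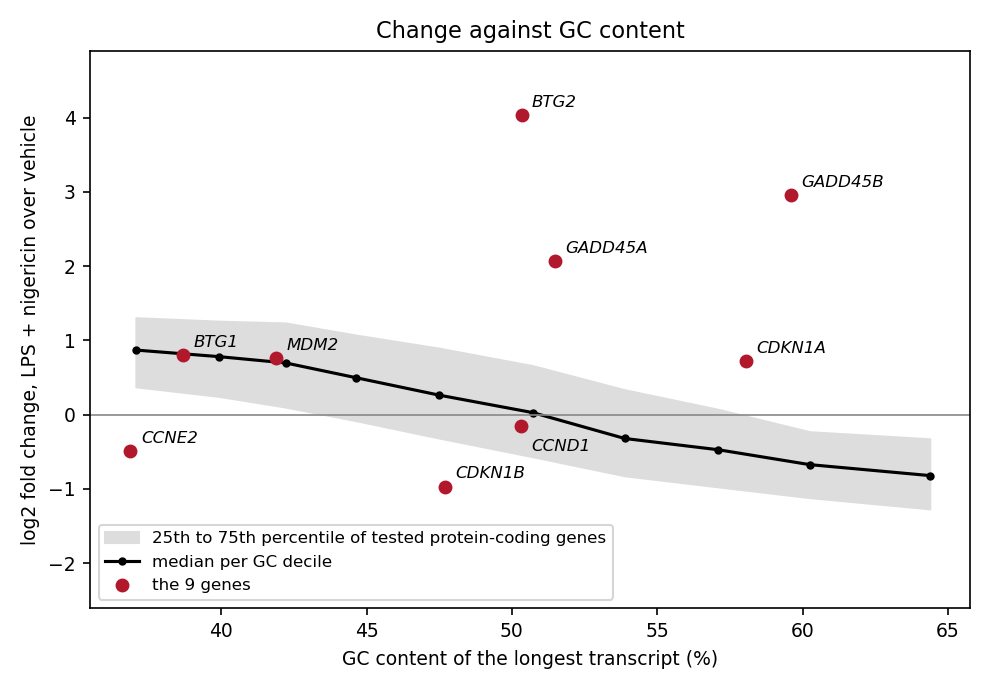
Log2 fold change of the 9 genes (red points, y axis) against the GC content of their longest annotated transcript (x axis, %), with the median and the 25th to 75th percentile of 13976 tested protein-coding genes per GC decile (black line and grey band). BTG1 and MDM2 lie on the median line, at 38.7% and 41.9% GC. GADD45B and CDKN1A lie above the band at 59.6% and 58.1% GC, as do BTG2 and GADD45A nearer the middle of the GC range. CDKN1B and CCNE2 lie below the band and CCND1 lies within it.

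CDKN1A (ENSG00000124762, chromosome 6, 36676460 to 36687339, plus strand) encodes p21, which binds and blocks CDK2 complexes. It was at 288.5, 313 and 305 CPM in LPS plus nigericin libraries 1 to 3, against 189, 210 and 153 CPM in vehicle libraries 1 to 3. All treated values lay above all vehicle values. The means were 302 ± 12.6 and 184 ± 28.9 CPM (SD, n = 3 each), a rise of 1.64-fold (log2 fold change 0.72, SE 0.135, edgeR adjusted p = 0.00301). The transcript is GC-rich, in a decile whose median gene had a log2 fold change of -0.47, and with the offsets CDKN1A was at 1.27 (95% interval 1.1 to 1.44), a larger rise.

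MDM2 (ENSG00000135679, chromosome 12, 68808176 to 68850686, plus strand), the p53-degrading ligase, was at 64.0, 47.7 and 59.4 CPM after LPS plus nigericin and at 33.7, 20.5 and 46.9 CPM in vehicle. The lowest treated library and the highest vehicle library were almost level. Means were 57.0 ± 8.43 and 33.7 ± 13.2 CPM (SD, n = 3 each), a 1.69-fold rise (edgeR adjusted p = 0.0470; log2 fold change 0.76, SE 0.277). The call is fragile. It was lost with library totals in place of TMM factors, and without vehicle library 1 or any one of the treated libraries (log2 fold change 0.66 to 0.87, edgeR adjusted p = 0.0645 to 0.144), and with the offsets MDM2 was at -0.13 (95% interval -0.48 to 0.23). MDM2 is GC-poor and in the third GC decile, whose median gene had a log2 fold change of 0.70. The offsets also cover exon length, and the part of each was not tested. MDM2 has 13284 exon bases, against a median of 4950.5 over tested protein-coding genes. Its exons share 439 bases with a processed pseudogene on the same strand that held 35 counts over all 6 libraries. On the other strand they share 785 bases with an antisense gene at 0 counts, and 133 bases with a protein-coding gene that held 247 counts.

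CDKN1B (ENSG00000111276, chromosome 12, 12715058 to 12722371, plus strand) encodes p27, an inhibitor of cyclin E-CDK2 that holds resting cells in G1 and is regulated largely through protein stability. It was the gene of the set that fell. CPM were 9.72, 8.80 and 11 after LPS plus nigericin, against 21.8, 13.7 and 22.3 in vehicle, with no overlap. The means were 9.84 ± 1.11 and 19.3 ± 4.81 CPM (SD, n = 3 each), so the treated level was 0.510 of that in vehicle (log2 fold change -0.97, SE 0.211, edgeR adjusted p = 0.00563). With the offsets the value was -1.09 (95% interval -1.46 to -0.72).

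The BTG proteins are antiproliferative adaptors that bind the CCR4-NOT deadenylase, which shortens mRNA tails. BTG2 (ENSG00000159388, chromosome 1, 203305491 to 203309602, plus strand) had the largest rise of the set. It was at 19.9, 20.3 and 19.4 CPM (1314, 1694 and 1634 counts) in the treated libraries and at 1.81, 0.538 and 1.28 CPM (165, 41 and 117 counts) in the vehicle libraries. Treated libraries were nearly identical, and the vehicle libraries were all low but differed among themselves. The means were 19.9 ± 0.426 and 1.21 ± 0.638 CPM (SD, n = 3 each), a 16.3-fold rise (log2 fold change 4.03, SE 0.391, edgeR adjusted p = 1.81e-04) that ranks 378 from the top of all tested genes. With the offsets it was 4.10 (95% interval 3.29 to 4.91).

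BTG1 (ENSG00000133639, chromosome 12, 92140278 to 92145897, minus strand) rose less, with 25.7, 24.9 and 24.2 CPM after LPS plus nigericin and 16.2, 11.2 and 15.5 CPM in vehicle, again without overlap. Its means were 24.9 ± 0.741 and 14.3 ± 2.69 CPM (SD, n = 3 each; log2 fold change 0.80, SE 0.166, edgeR adjusted p = 0.00459). The gene is GC-poor, and with the offsets it was at 0.10 (95% interval -0.17 to 0.36) and no longer passed. BTG1 also shares 503 exon bases with the noncoding gene LINC01619 on the same strand, which was at 4.19 ± 1.08 CPM after LPS plus nigericin and 0.115 ± 0.0143 CPM in vehicle (SD, n = 3 each), so reads could be assigned to either gene.

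GADD45 proteins are small stress sensors that bind PCNA, CDK1 and the kinase MAP3K4. GADD45A (ENSG00000116717, chromosome 1, 67685061 to 67688338, plus strand) was at 109, 118 and 122 CPM in the treated libraries, against 31.1, 17.2 and 34.9 CPM in vehicle. No library of either group came near the other group. The means of 116 ± 6.65 and 27.7 ± 9.29 CPM (SD, n = 3 each) gave a 4.19-fold rise (edgeR adjusted p = 4.13e-04; log2 fold change 2.07, SE 0.246), and the offsets moved it to 2.24 (95% interval 1.68 to 2.80).

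GADD45B (ENSG00000099860, chromosome 19, 2476122 to 2478259, plus strand), a known target of NF-kB, was at 182, 234 and 209 CPM in the treated libraries and at 29.5, 28.8 and 22.5 CPM in vehicle. Its means were 208 ± 25.8 and 26.9 ± 3.88 CPM (SD, n = 3 each), a 7.74-fold rise (log2 fold change 2.95, SE 0.159, edgeR adjusted p = 2.72e-05). It lies in the ninth GC decile, where the median gene had a log2 fold change of -0.67, and with the offsets its own value was 3.55 (95% interval 3.34 to 3.76). GADD45G, the third gene of the family, was at 0.410 ± 0.256 CPM in treated and 0.200 ± 0.0719 CPM in vehicle libraries and did not pass (SD, n = 3 each; edgeR adjusted p = 0.221).

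CCND1 (ENSG00000110092, chromosome 11, 69641087 to 69654474, plus strand) encodes cyclin D1, the partner of CDK4 and CDK6 that starts G1 progression. It was the most abundant gene of the set in vehicle, above 99.0% of tested genes. CPM were 540, 582 and 557 after LPS plus nigericin and 614, 640.5 and 611 in vehicle, so all treated values were slightly lower. The means were 560 ± 21.5 and 622 ± 16.2 CPM (SD, n = 3 each), and the difference did not pass (log2 fold change -0.15, 95% interval -0.38 to 0.08, edgeR adjusted p = 0.224). In the fit with offsets it passed at -0.26 (edgeR adjusted p = 0.0229). CCND1 shares 497 exon bases with LTO1 on the other strand, which held 19.8 ± 0.982 CPM in treated and 29.7 ± 4.05 CPM in vehicle libraries (SD, n = 3 each).

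CCNE2 (ENSG00000175305, chromosome 8, 94879770 to 94896678, minus strand) encodes cyclin E2, the CDK2 partner induced by E2F at the G1/S boundary. It was the gene with fewest counts in the treated libraries, with 2.66, 1.85 and 2.85 CPM after LPS plus nigericin (176, 154 and 239 counts) and 2.35, 1.92 and 6.07 CPM in vehicle (215, 146 and 553 counts). Vehicle library 3 stood apart from the others, and the groups overlapped. The log2 fold change was -0.49 (95% interval -1.50 to 0.51, edgeR adjusted p = 0.366), and without vehicle library 3 its sign turned, at 0.19. With the offsets CCNE2 passed at -1.11 (95% interval -1.80 to -0.41), but that fit was not repeated without vehicle library 3. CCNE2 lies in the GC-poorest decile, whose median gene had a log2 fold change of 0.87. The exons of CCNE2 share 1629 bases with INTS8 on the other strand, which was at 30.3 ± 0.259 CPM in treated and 25.2 ± 3.98 CPM in vehicle libraries (SD, n = 3 each), and as it is unknown whether counting used strand, CCNE2 counts can include INTS8 reads. CCNE1, the other E cyclin, was at 16.7, 19.3 and 18.4 CPM in treated and 15.8, 15.2 and 14.6 CPM in vehicle libraries. It did not pass (log2 fold change 0.26, edgeR adjusted p = 0.123), but passed with the offsets at 0.51 (edgeR adjusted p = 0.00180).

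**Figure D3:**
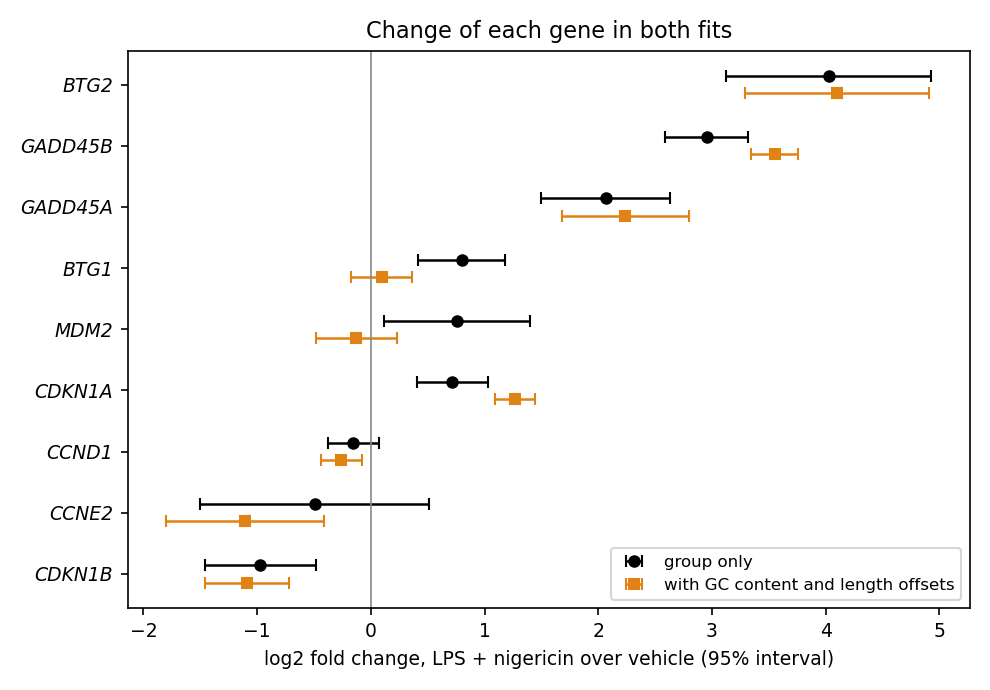
Log2 fold change of LPS plus nigericin over vehicle (x axis) with 95% intervals for each gene, from the fit on group alone (black circles) and from the fit with GC content and length offsets (orange squares). The intervals of BTG2, GADD45B, GADD45A, CDKN1A and CDKN1B exclude 0 in both fits, those of BTG1 and MDM2 in the first and those of CCND1 and CCNE2 in the second.

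Levels were set side by side per kilobase of annotated exon. In vehicle the order of CPM per kb was CCND1 (129 ± 3.35), CDKN1A (60.2 ± 9.47), GADD45A (13.4 ± 4.49), GADD45B (12.6 ± 1.81), CDKN1B (6.86 ± 1.71), BTG1 (2.95 ± 0.554), MDM2 (2.54 ± 0.993), CCNE2 (0.784 ± 0.519) and BTG2 (0.439 ± 0.231) (SD, n = 3 each). GADD45A and GADD45B, BTG1 and MDM2, and CCNE2 and BTG2 lay within their spread of each other. After LPS plus nigericin the order was CCND1 (116 ± 4.44), CDKN1A (99.1 ± 4.14), GADD45B (97.4 ± 12.1), GADD45A (56.2 ± 3.21), BTG2 (7.21 ± 0.154), BTG1 (5.13 ± 0.153), MDM2 (4.29 ± 0.635), CDKN1B (3.50 ± 0.394) and CCNE2 (0.557 ± 0.121). In treated cells CDKN1A and GADD45B overlapped, as did MDM2 and CDKN1B. BTG2 was last of the 9 in vehicle but above BTG1, MDM2 and CDKN1B in treated cells, while CDKN1B was above BTG1 in vehicle and below it in treated cells. With the length of the longest transcript in place of all exons, CDKN1A stood above CCND1 in treated cells, at 133 against 130 CPM per kb, and the other ranks in both groups were unchanged.

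Ratios of related genes within a library do not depend on how libraries are scaled, though they still carry any GC trend. The BTG2 to BTG1 ratio of counts per kb was 1.36, 1.43 and 1.42 in the treated libraries and 0.196, 0.0843 and 0.146 in the vehicle libraries, so the balance of the pair turned round in every library, with a log2 difference of 3.39. CDKN1A to CDKN1B was 27.4, 32.8 and 25.5 after LPS plus nigericin and 7.97, 14.1 and 6.31 in vehicle, a log2 difference of 1.67. GADD45B to GADD45A was 1.62, 1.91 and 1.67 in treated and 0.917, 1.62 and 0.623 in vehicle libraries (log2 difference 0.83), and the lowest treated library and vehicle library 2 were level to 3 digits. For these 3 ratios the exact two-sided permutation p was 0.1 (0.133 adjusted over 4 ratios), the smallest that 3 against 3 libraries allow. CCNE2 to CCND1 overlapped between the groups (log2 difference -0.17, exact permutation p = 0.9).

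**Figure D4:**
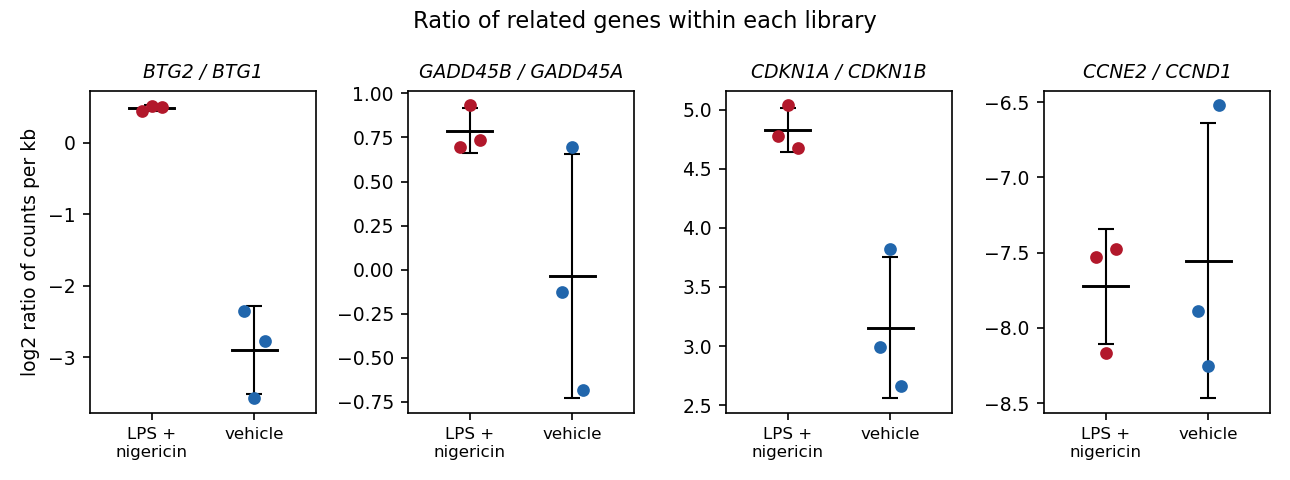
Log2 ratio of counts per kb of exon between 2 related genes (y axis, own scale in each panel) in each LPS plus nigericin library (red) and vehicle library (blue), with mean and SD. The BTG2 to BTG1 ratio lies above 0 in all treated and below 0 in all vehicle libraries, while CCNE2 to CCND1 overlaps.

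The vehicle libraries spread more than the treated ones for most of the set. Of the 9 genes 6 were lowest in vehicle library 2 among the vehicle libraries, the one with the strongest GC correlation, and the other 3 were lowest in vehicle library 3, the one with the weakest. Over all 15 alternative settings BTG2 kept its call with log2 fold changes of 3.68 to 4.43, GADD45B with 2.83 to 3.55, GADD45A with 1.81 to 2.30, CDKN1A with 0.59 to 1.27 and CDKN1B with -1.17 to -0.86.

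Sequence features of the 9 transcripts were mixed. GC content ran from 36.9% in CCNE2 to 59.6% in GADD45B, with a median of 49.0% over tested protein-coding genes. The pentamer ATTTA of AU-rich elements, which mark short-lived mRNAs, occurred 11 times in the 3′ UTR of CCNE2, 7 times in CDKN1B and in CCND1, 5 times in BTG1, 4 times in MDM2, 3 times in CDKN1A, 2 times in BTG2 and in GADD45A and 0 times in GADD45B, against a median of 2. Per kilobase of 3′ UTR, CCNE2 and CDKN1B, at 5.91 and 5.21, exceeded 93.9% and 91.75% of tested coding genes. The genes that rose lay on both sides of the median of 1.52 per kilobase, with MDM2 at 4.17, GADD45A at 3.55, CDKN1A at 1.95, BTG1 at 1.31, BTG2 at 0.924 and GADD45B at 0.

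The nearest patterns were sought among tested genes that averaged 5 CPM or more, by the root mean square difference of log2 CPM, centred on each gene's mean over the 6 libraries. For BTG2 they were the antisense gene PLCG1-AS1 (0.257) and the chemokine gene CXCL3 (0.282), and for GADD45B the complement gene CFB (0.110) and RASD1 (0.144). For GADD45A they were KITLG (0.0858), which encodes stem cell factor, and the AP-1 gene FOS (0.102). MDM2 lay near SMAD5 (0.0592). CDKN1A lay closest to RASSF1 (0.0574) and PARP6 (0.0578), and CDKN1B to CSTF2T (0.0744) and ZNF319 (0.0767). BTG1 lay closest to CRNKL1 (0.0365) and ZFTA (0.0481), CCND1 to RBM8A (0.0157) and CNDP2 (0.0173), and CCNE2 to NIPSNAP2 (0.234) and CNEP1R1 (0.273). The measure is small for any pair of genes that vary little, as CCND1 does.

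Other p53 targets did not move in one direction. Of 41 tested genes of a list of 42, 14 rose, 14 fell and 13 did not pass (68.3% called, against 55.3% of all tested genes). The median log2 fold change was 0.11, against 0.0016 over all tested genes. PMAIP1, which encodes the BH3-only death protein NOXA, rose with 65.2, 54.8 and 58.6 CPM in treated libraries against 12.9, 7.17 and 23.5 CPM in vehicle (log2 fold change 2.03), and KITLG rose with 18.9 ± 0.725 against 4.89 ± 1.58 CPM (SD, n = 3 each; log2 fold change 1.95). BBC3, which encodes the BH3-only protein PUMA, fell, with 0.302, 0.803 and 1.21 CPM in treated and 4.12, 3.49 and 4.01 CPM in vehicle libraries (log2 fold change -2.31). DDB2, a sensor of ultraviolet damage in DNA, fell to 26.1 ± 3.34 CPM, against 77.5 ± 15.3 CPM in vehicle (SD, n = 3 each; log2 fold change -1.57). With the offsets PMAIP1, KITLG, BBC3 and DDB2 were at 1.58, 1.13, -1.59 and -1.56, and the list had 16 higher and 11 lower.

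In a list of the p53 regulatory circuit, 12 of 23 tested genes rose, 3 fell and 8 did not pass. The share called was 65.2%, against 55.3% of all tested genes, and the median 0.56, against 0.0016. The coactivator gene EP300 (log2 fold change 2.31) and the deacetylase gene SIRT1 (1.97) rose most, and the acetyltransferase gene KAT5 (-1.46) and PPP1R13L (-0.93), which encodes the p53 inhibitor iASPP, fell. With the offsets EP300 was at 1.935, SIRT1 at 1.39, KAT5 at -0.93 and PPP1R13L at -0.26. MDM4, which encodes an MDM2 partner that blocks p53, rose, with 19.2 ± 1.71 and 10.3 ± 2.63 CPM (SD, n = 3 each; log2 fold change 0.89, edgeR adjusted p = 0.00742). With the offsets MDM4 was at 0.03 and did not pass, and the list had 9 higher and 8 lower with a median of 0.05. With library totals 6 genes were lower.

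Of the 5 remaining CDK inhibitor genes, 1 rose, 3 fell and 1 did not pass (80% called, against 55.3% of all tested genes). CDKN2C, which encodes the CDK4 and CDK6 inhibitor p18, was at 13.6, 17.1 and 16.6 CPM after LPS plus nigericin and 58.6, 55.6 and 55.7 CPM in vehicle (log2 fold change -1.85, SE 0.134, edgeR adjusted p = 6.46e-05). CDKN2A, the gene of p16 and ARF, was at 46.0, 67.6 and 62.0 CPM in treated and 105, 125 and 90.0 CPM in vehicle libraries (log2 fold change -0.87), and CDKN2D at -0.47. CDKN1C, which encodes p57, rose at low level (log2 fold change 0.92), a call lost without vehicle library 1 or treated library 2 or 3 (edgeR adjusted p = 0.0520 to 0.0572), and CDKN2B did not pass. Of these calls 2 were left without vehicle library 1 or treated library 3. With the offsets CDKN2C was at -1.33, CDKN2A at -0.28 and CDKN1C at 1.63, while CDKN2D was at 0.13, with its sign turned, and did not pass (edgeR adjusted p = 0.536). That left 1 higher and 2 lower, and a median of -0.16 against -0.47 without the offsets.

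Among 21 tested G1 cyclins, kinases, RB family members and E2F factors, 9 rose, 5 fell and 7 did not pass (66.7% called, against 55.3% of all tested genes; median 0.29). With library totals 5 were higher, and with the offsets 8 were higher and 7 lower (median 0.13). The kinase gene CDK6 rose with 62.55, 54.3 and 52.4 CPM in treated and 15.98, 11.99 and 19.1 CPM in vehicle libraries (log2 fold change 1.85), while CDK4, which shares its cyclin D partners, fell with 224 ± 20.3 and 383 ± 75.2 CPM (SD, n = 3 each; log2 fold change -0.77). RB1 rose (log2 fold change 1.72), a call lost without vehicle library 1 or treated library 1 (edgeR adjusted p = 0.0522 and 0.0533), and E2F2 fell (-1.25). Without either of these libraries 7 genes of the list were called. With the offsets CDK6 was at 0.82, CDK4 at -0.50, RB1 at 0.95 and E2F2 at -0.89.

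The family and partners of the BTG genes included 10 of 18 tested genes that rose, 3 that fell and 5 that did not pass. The share called was 72.2%, against 55.3% of all tested genes, and the median 0.71, against 0.0016. BTG3 rose, with 15.5 ± 1.84 and 5.59 ± 2.63 CPM (SD, n = 3 each; log2 fold change 1.47, edgeR adjusted p = 0.00703), or 1.16 with the offsets. In this list PAN3 (1.94) and CNOT4 (1.92) rose most, and CNOT9 (-0.91) and CNOT11 (-0.60), both subunits of CCR4-NOT, fell. The CNOT11 call was lost without vehicle library 1 or treated library 1 or 3 (edgeR adjusted p = 0.0606 to 0.0720). With the offsets PAN3 was at 1.17, CNOT4 at 1.04, CNOT9 at -1.25 and CNOT11 at -0.59, and the list had 8 higher and 5 lower with a median of 0.08.

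**Figure D5:**
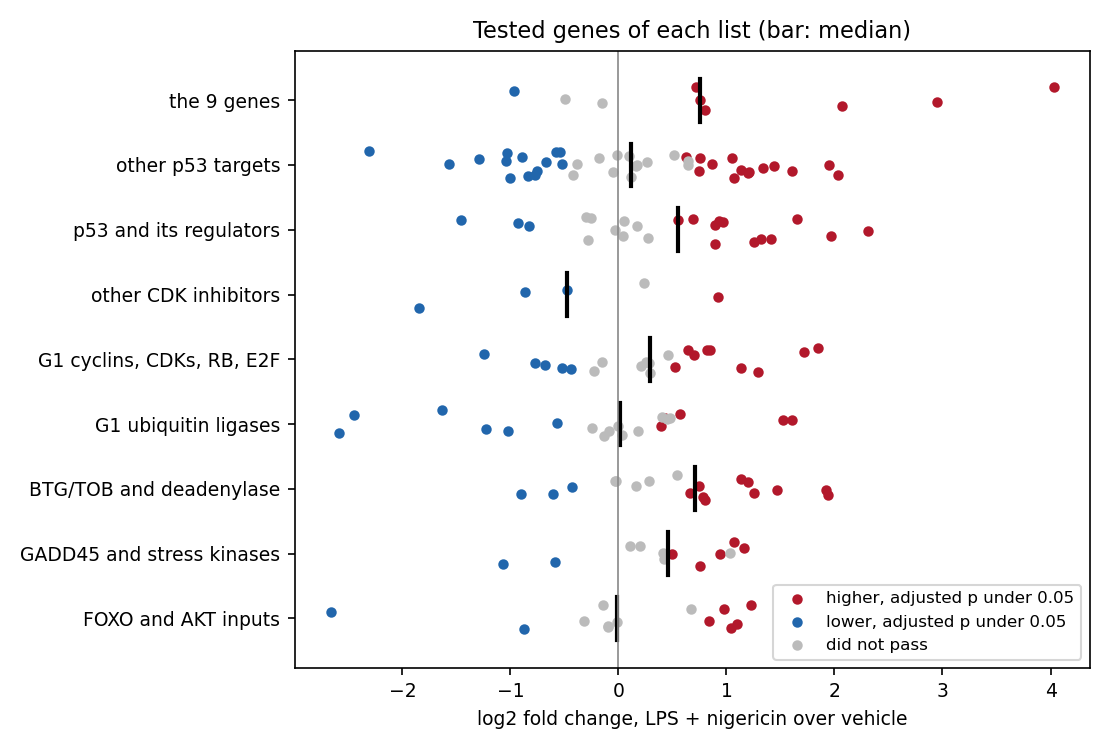
Log2 fold change of LPS plus nigericin over vehicle (x axis) for every tested gene of the 9-gene set and of 8 related lists (rows), red where higher and blue where lower at an adjusted p under 0.05, grey otherwise; black bars are medians. The p53 target list spreads to both sides of 0, and BTG2 lies to the right of every other point.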

How the data were processed

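The submitters deposited raw counts per Ensembl gene, with a column for each library (per the file headers). The genome build is hg38, per the submitters' processing notes; the aligner, counting tool, annotation release and strand setting were not given in the sources used here. Columns were assigned to samples by the library name in the labels, and 0 columns belonged to no sample. Of 37871 identifiers, 37840 matched a symbol.

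Genes were filtered with edgeR's filterByExpr (19170 left), normalized with TMM and compared with edgeR 4.0.16 in R 4.3.3 (robust quasi-likelihood F test, group as the only term, Benjamini-Hochberg threshold 0.05). Each SE equals the log2 fold change, without sign, over the root of its F statistic. The common biological coefficient of variation was 0.268, and no replicate pair matched within counting noise (chi-square over degrees of freedom 22.6 to 187). The GC fit used loess offsets (span 0.3) per library. Positions, exon length, transcript GC content and 3′ UTRs came from GENCODE 29 on the same assembly, promoter windows from RefSeq.

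The members, lists and tests were chosen with earlier results of these data known. Named list genes are the 2 largest rises and 2 largest falls per list among called genes without overlap and with at least 1 CPM in the higher group, plus MDM4, CCNE1, GADD45G and BTG3. CDKN2B and CDKN2D, and INTS8, LTO1 and LINC01619, which overlap members, were chosen for naming with their values in view. Some genes that the rule names are not reported here. As alternatives came RLE factors, library totals, DESeq2 1.42.0, no filter, a stricter filter (1 CPM or more in 3 libraries), a block for the replicate number, the GC and length offsets alone and with that block, removal of mitochondrial-genome and rRNA genes, leaving out each library, and 0.5 count added to the ratios. The scripts were tested on simulated data. Figures used Python 3.11.15.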

Additional observations from a re-analysis of the deposited data

How the results depend on the processing

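BTG2, GADD45B, GADD45A, CDKN1A and CDKN1B kept direction and call under all 15 alternatives, and 1167 of 1257 recomputed values did so or stayed within their margin. With library totals MDM2 was at 0.67 (edgeR adjusted p = 0.124). With GC content and length offsets, alone and then with the replicate block, MDM2 was at -0.13 and -0.11, BTG1 at 0.10 and 0.10, CCND1 at -0.26 and -0.26 and CCNE2 at -1.11 and -1.05. In these 2 fits 3 and 3 of the 9 genes were called lower, 3443 and 3391 genes were called higher, and MAP2K7 was at 0.013 and 0.013. The offsets were fitted on 13976 genes, which lowers the counts; the cause of the other shifts was not tested.

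Leaving out each library in turn gave 0.50 to 1.06 for MDM2, with the call lost in 4 of 6 fits, and -0.78 to 0.19 for CCNE2. It gave 2 to 4 called CDK inhibitors, 7 to 15 called G1 cyclin, kinase, RB and E2F genes, and a CCNE2 to CCND1 difference of -0.52 to 0.35.

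Deviations of same-numbered libraries correlated at -0.023, 0.096 and -0.024. Treated library 1 correlated best with vehicle library 3 (0.122), treated library 2 with vehicle library 2 (0.096) and treated library 3 with vehicle library 1 (0.028). Deviations were taken from each group's own mean, so these values depend on one another. The same-numbered library was the best match for treated library 2 only. Whether replicate numbers mark a shared batch was not tested. With the replicate block 10408 genes were called, against 10610 without it, and no member's call changed. Depth limits CCNE2 and vehicle BTG2 most, at 146 to 553 and 41 to 165 counts a library.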

Other observations

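A further list held genes of ubiquitin ligases that act on G1 regulators and of related factors, such as CKS1B and USP28. Of its 20 tested genes 5 rose, 6 fell and 9 did not pass, so 55% were called, close to the 55.3% of all tested genes. CUL3, a scaffold of ligases that act on cyclin E, rose with 92.7, 78.6 and 83.0 CPM in treated and 29.1, 20.9 and 33.3 CPM in vehicle libraries (log2 fold change 1.61), and FBXW7, which recognises cyclin E and MYC, with 10.8 ± 1.03 and 3.75 ± 0.456 CPM (SD, n = 3 each; log2 fold change 1.53). RBX1, the RING subunit of cullin ligases, fell with 9.98 ± 0.912 CPM in treated and 54.4 ± 4.66 CPM in vehicle libraries (SD, n = 3 each; log2 fold change -2.45), and FBXL8 fell by 2.59 on the log2 scale. With the offsets CUL3 was at 0.54, FBXW7 at 0.86, RBX1 at -2.88 and FBXL8 at -1.76, and the list had 4 higher and 11 lower (median -0.43, against 0.01 without them). Of all genes in the fit with offsets, 24.6% were higher and 30.1% lower.

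Among the stress kinases and partners of GADD45 proteins, 5 of 12 rose, 2 fell and 5 did not pass (58.3% called, near the 55.3% of all tested genes). With the offsets 3 were higher and 3 lower, and the median was 0.02 against 0.46 without them. MAP3K4, the kinase that GADD45 proteins bind, rose (log2 fold change 1.07, or 0.63 with the offsets), as did MAP2K4 (1.17, or 0.53). PCNA, the DNA polymerase clamp, fell with 117, 112 and 115 CPM in treated and 244, 184 and 292 CPM in vehicle libraries (log2 fold change -1.07, or -1.16), and MAP2K7 fell by 0.59 on the log2 scale, a call that was lost with the offsets (0.013, edgeR adjusted p = 0.895). Of 13 FOXO and AKT pathway genes, 5 rose, 2 fell and 6 did not pass (53.8% called, near the 55.3% of all tested genes). With the offsets 3 were higher and 5 lower (median -0.22, against -0.01 without them). Genes called without the offsets included PIK3CA (1.09), FOXO6 (-2.66) and FOXO4 (-0.88). FOXO6 was at 0.174 ± 0.0348 CPM in treated and 1.11 ± 0.240 CPM in vehicle libraries, and FOXO4 at 0.976 ± 0.207 and 1.80 ± 0.259 CPM (SD, n = 3 each). With the offsets FOXO6 was at -1.83, PIK3CA and FOXO4 did not pass, at 0.04 and -0.49, and the FOXO4 call was also lost without vehicle library 3 or treated library 1 or 2 (edgeR adjusted p = 0.0596 to 0.0820).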
